A study of Mus musculus with 8 samples.

Results

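The matrix metalloproteinases (MMPs), the ADAMTS proteases with their ADAMTS-like relatives, and the tissue inhibitors of metalloproteinases (TIMPs) were followed in whole mouse lung RNA. MMPs and ADAMTS proteases are zinc enzymes that cut proteins of the extracellular matrix and of the cell surface. Most are made as inactive proenzymes. TIMPs bind the active site of the enzymes and block it, so that matrix turnover in tissue depends on the balance of both. In the inflamed lung, neutrophils and macrophages carry several MMPs of their own, and fibroblasts, endothelium and epithelium make others. The members were all genes whose symbol starts with Mmp, Adamts or Timp followed by a number, or by the letter l and a number, on a probe set that names 1 gene. There were 47 such genes among 18820, comprising 20 Mmp, 18 Adamts, 5 Adamtsl and 4 Timp genes. They were read by 73 probe sets, and 5 genes had more than 1, of which the probe set with the highest mean over all arrays was used. RefSeq lists 51 genes of these families in the mouse, and Adamts2, Mmp15, Mmp27 and Mmp28 were not analysed here.

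Lungs came from FVB mice of both sexes, 8 to 12 weeks old, and all 4 groups drank doxycycline (dox) at 2 g/L with 2% sucrose for 1 week. CCSP-p52 mice carried CCSP-tTS/(tet-O)7-FLAG-p52 together with CCSP-rtTA, so that dox turned on FLAG-tagged p52, a subunit of NF-kappaB, from a promoter active in CCSP-positive airway cells; animals of 2 founder lines were used, and WT mice were littermates negative for the genotype. The WT dox and CCSP-p52 dox groups received nothing else, while the WT LPS and CCSP-p52 LPS groups were also given LPS, the endotoxin of Gram-negative bacteria, into the trachea 48 hours before. Each group had 2 arrays, and each array read the RNA of 3 mice pooled, so that the error given here is the spread between pools. All values are log2 expression after normalization, a logFC is a difference of 2 such values, and levels of different genes are not compared because each probe set has its own response. A gene was called higher or lower for LPS at a limma p under 0.05 after Benjamini-Hochberg adjustment over all 21218 probe sets tested. For p52 the study's logFC cut-off for higher genes, 0.41, was used in both directions here, and an unadjusted p of at most 0.05 was required in addition.

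As a check of the labels, Nfkb2, which encodes p52, was higher in CCSP-p52 dox lungs (10.20 and 10.33) than in WT dox lungs (9.51 and 9.58), and after LPS the genotypes overlapped (11.28 and 10.53 against 10.83 and 10.56). The array medians lay between 7.48 and 7.54. Pools of the same group correlated at 0.996 in both dox groups, 0.985 in WT LPS and 0.981 in CCSP-p52 LPS. WT LPS pool 2 stood apart by genes of squamous epithelium (mean log2 value of 10 markers 9.93, against 6.34 to 6.60 on the other arrays) and of skeletal muscle (12 markers, 9.17 against 6.97 to 7.32). CCSP-p52 LPS pool 2 had moved least from the dox pools in 70.0% of the 6453 genes called for LPS. The means of 10 alveolar epithelial markers were 11.47 to 12.40 on the 8 arrays.

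LPS raised 12 of the 47 members and lowered 9 over both genotypes, and 26 were not called. These shares are 25.5% and 19.1% of the members, beside 13.5% and 20.8% of all genes. The median logFC was 0.067 over the members and 0.0046 over all genes. The MMPs moved mostly up, with 9 higher and 2 lower of 20. Among the ADAMTS genes 2 were higher and 3 lower of 18, among the ADAMTS-like genes 3 were lower of 5, and of the TIMPs 1 was higher and 1 lower. The called members ran from a logFC of 5.29 for Mmp8 to -1.39 for Adamts10, and those not called lay between -0.62 and 0.24. In bulk lung RNA, fewer cells of a type and less RNA per cell cannot be told apart, and the same holds for more.

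**Figure D1:**
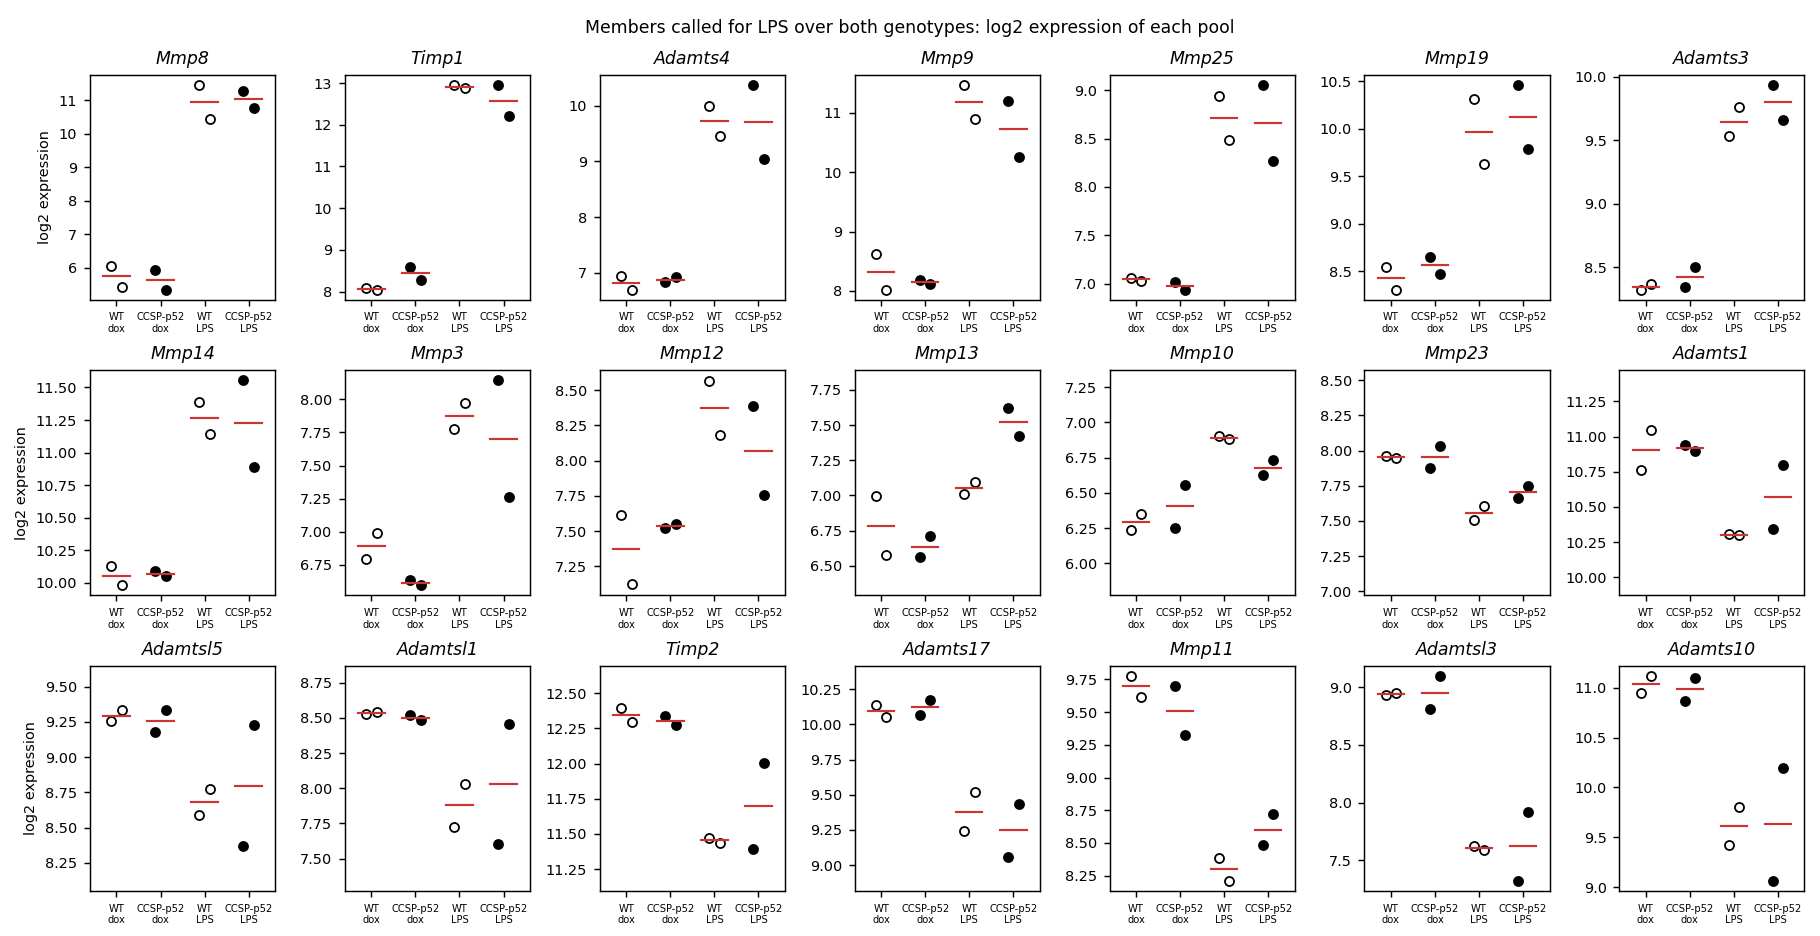
Log2 expression of each pool for the 21 members called for LPS over both genotypes, 1 panel per gene with its own vertical axis, WT pools as open and CCSP-p52 pools as filled circles, and the group mean as a line. The LPS pools lie apart from the dox pools in all panels except Adamts1 and Adamtsl5, where CCSP-p52 LPS pool 2 lies among the dox pools. In Adamtsl1 they are barely apart (CCSP-p52 LPS pool 2 8.45, CCSP-p52 dox pool 2 8.48). The genes were chosen by the LPS test on these same arrays, so the separation is not further evidence.

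The collagenases cut fibrillar collagen, and Mmp8, the collagenase stored in neutrophil granules, changed more than any other member. It read 6.07 and 5.42 in the WT dox pools, 5.95 and 5.35 in the CCSP-p52 dox pools, 11.46 and 10.44 in the WT LPS pools and 11.28 and 10.78 in the CCSP-p52 LPS pools. The lowest LPS pool was thus far above the highest dox pool. Its logFC over both genotypes was 5.29 (standard error 0.26, 39.2-fold, adjusted p = 3.4e-05 from limma, n = 4 pools with and 4 without LPS), rank 5 from the top among the 18820 genes. Mmp13, collagenase 3, had a logFC of 0.58 (standard error 0.15, adjusted p = 0.019), and its call did not hold when WT dox pool 2 (0.55), the first CCSP-p52 dox pool (0.48) or the second (0.55) was left out. Mmp1a and Mmp1b, the mouse relatives of interstitial collagenase, stayed at 0.05 and 0.03 and were not called.

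Both gelatinases, which cut denatured collagen and basement membrane collagen, were measured, and they differed. Mmp9, gelatinase B, which neutrophils also store, read 8.61 and 8.02 in the WT dox pools, 8.18 and 8.11 in the CCSP-p52 dox pools, 11.47 and 10.90 in the WT LPS pools and 11.19 and 10.25 in the CCSP-p52 LPS pools. Every LPS pool lay above every dox pool, and the logFC was 2.72 (standard error 0.23, 6.60-fold, adjusted p = 0.00020). Mmp2, gelatinase A, a product mainly of fibroblasts, read 12.04, 11.77, 11.93 and 11.82 in the dox pools and 11.47, 11.07, 11.61 and 11.83 in the LPS pools, in the order WT then CCSP-p52. The ranges overlap, and its logFC of -0.40 (standard error 0.14) did not pass adjustment (adjusted p = 0.057).

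The stromelysins have a broad range of matrix substrates and moved in both directions. Mmp3, stromelysin 1, read 6.79 and 6.99 in WT dox, 6.63 and 6.60 in CCSP-p52 dox, 7.77 and 7.98 in WT LPS, and 8.14 and 7.26 in CCSP-p52 LPS lungs, a logFC of 1.04 (standard error 0.17). Mmp10, stromelysin 2, had a smaller logFC of 0.43 (standard error 0.10). Mmp11, stromelysin 3, which is cut to its active form inside the cell, went the other way: it read 9.78 and 9.62 in WT dox, 9.70 and 9.32 in CCSP-p52 dox, 8.38 and 8.21 in WT LPS and 8.48 and 8.72 in CCSP-p52 LPS lungs. All 4 LPS pools lay below all 4 dox pools, and Mmp11 fell by 1.15 (standard error 0.14, adjusted p = 0.00069). Mmp12, the elastase of macrophages, had a logFC of 0.77 (standard error 0.19, adjusted p = 0.014), while matrilysin, Mmp7, an epithelial enzyme, was not called (0.20).

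Of the membrane-type MMPs, which stay anchored at the cell surface, 2 of the 5 measured were higher. Mmp14, which activates the proenzyme of MMP2, read 10.13 and 9.98 in WT dox, 10.09 and 10.05 in CCSP-p52 dox, 11.39 and 11.14 in WT LPS and 11.55 and 10.89 in CCSP-p52 LPS lungs. Its logFC was 1.18 (standard error 0.14, 2.27-fold), and Mmp25, the leukolysin of leukocytes, had a logFC of 1.67 (standard error 0.17, 3.19-fold). Mmp16, Mmp17 and Mmp24 lay between -0.05 and 0.19 and were not called. Mmp19, an MMP with a wide tissue distribution, rose by a logFC of 1.55 (standard error 0.19), from 8.31 to 8.65 in the dox pools to 9.63 to 10.46 in the LPS pools. Mmp23 fell by 0.32 (standard error 0.07), the smallest change among the called members. Neither Mmp20, the enamel protease, nor Mmp21 was called.

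Mmp8, Mmp3, Mmp10, Mmp12 and Mmp13 belong to a run of Mmp genes on mouse chromosome 9. The order of the run is Mmp13, Mmp12, Mmp1b, Mmp3, Mmp1a, Mmp10, Mmp8, Mmp27, Mmp20 and Mmp7. Of the 9 analysed, 5 were higher after LPS, beside 13.5% of all genes. The MMP genes of this run arose by duplication and share sequence, so they are not independent cases. Promoter windows, the 250 bases before the annotated start, were taken from RefSeq (GRCm38.p6) for 32 of the 47 members, with 35 windows in all, and none of Mmp9, Adamts4 or Mmp19 was in the table. Any member on a chromosome set aside beforehand has no window here, while the shares of all windows include that chromosome. Windows of Mmp8 (chr9:7558179-7558428, plus strand) and Timp1 (chrX:20869916-20870165, plus strand) are shown because these genes changed most. Those of Mmp3 (chr9:7445572-7445821, plus strand), Mmp10 (chr9:7502092-7502341, plus strand) and Mmp13 (chr9:7272264-7272513, plus strand) are shown as called genes that hold the AP-1 motif, and that of Mmp20 (chr9:7627981-7628230, plus strand) as a gene that holds it and was not called. AP-1 is the Fos and Jun transcription factor. Capitals mark TGANTCA, which reads the same on both strands, and a window without capitals holds none.
Mmp8: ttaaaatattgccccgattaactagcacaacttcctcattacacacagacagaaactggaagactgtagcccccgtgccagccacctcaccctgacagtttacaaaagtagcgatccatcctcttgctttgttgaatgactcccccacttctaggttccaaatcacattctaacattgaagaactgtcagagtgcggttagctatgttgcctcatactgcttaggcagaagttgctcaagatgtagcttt
Timp1: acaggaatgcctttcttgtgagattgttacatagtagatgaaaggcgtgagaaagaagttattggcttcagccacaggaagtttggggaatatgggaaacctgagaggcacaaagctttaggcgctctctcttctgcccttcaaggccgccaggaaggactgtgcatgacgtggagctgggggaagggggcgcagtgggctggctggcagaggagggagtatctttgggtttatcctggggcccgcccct
Mmp3: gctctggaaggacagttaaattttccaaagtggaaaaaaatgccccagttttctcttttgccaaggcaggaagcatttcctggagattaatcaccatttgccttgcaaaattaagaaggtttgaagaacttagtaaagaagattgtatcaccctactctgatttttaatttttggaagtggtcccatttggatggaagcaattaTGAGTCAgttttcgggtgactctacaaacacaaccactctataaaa
Mmp10: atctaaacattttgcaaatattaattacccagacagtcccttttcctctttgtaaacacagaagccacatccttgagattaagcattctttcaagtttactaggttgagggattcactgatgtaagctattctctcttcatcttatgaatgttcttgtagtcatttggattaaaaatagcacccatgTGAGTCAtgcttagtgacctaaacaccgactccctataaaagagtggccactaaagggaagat
Mmp13: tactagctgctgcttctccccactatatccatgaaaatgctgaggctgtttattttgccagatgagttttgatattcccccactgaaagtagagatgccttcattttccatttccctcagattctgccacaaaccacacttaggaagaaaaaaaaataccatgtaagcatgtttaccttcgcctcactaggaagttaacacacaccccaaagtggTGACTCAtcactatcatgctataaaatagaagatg
Mmp20: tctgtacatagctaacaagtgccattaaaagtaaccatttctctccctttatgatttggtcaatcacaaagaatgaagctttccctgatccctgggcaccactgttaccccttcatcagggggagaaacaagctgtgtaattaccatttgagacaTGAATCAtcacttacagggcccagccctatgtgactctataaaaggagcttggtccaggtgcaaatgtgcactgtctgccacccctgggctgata

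The motif begins 46 bases before the start in Mmp3, 63 in Mmp10, 35 in Mmp13 and 95 in Mmp20. It was found in 6.75% of 32851 windows of the same length from all genes, and in a window of 8 of the 9 genes of the run. Mmp8, with the greatest LPS difference, was the gene of the run without it, and all 4 genes of the run that were not called held it. None of the 23 other members with a window held it. Called and uncalled genes of the run were thus alike in holding the motif, apart from Mmp8. The uncalled genes read low, with means over all arrays of 3.93 for Mmp1b and 4.92 for Mmp1a. Those of Mmp7 and Mmp20 were also below the array medians of 7.48 to 7.54, as were those of the called Mmp3, Mmp10 and Mmp13. Whether the uncalled genes were expressed in these lungs was not tested, so their lack of a call is no evidence about the motif. An NF-kappaB motif, searched on both strands, was in the windows of 1 member, Mmp25, beginning 88 bases before the start, and in 3.90% of all windows. Of the windows shown, those of Mmp3, Mmp10, Mmp13 and Mmp20 hold the TATA motif TATAAA (12.4% of all windows) and that of Mmp8 does not. The GC box GGGCGG is in that of Timp1 (32.7%). Over the members, TATAAA was in 3 of 10 windows of higher genes, 1 of 8 of lower genes and 6 of 17 of uncalled genes. The GC box was in 4, 5 and 8 of these. These matches describe letters, not binding.

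**Figure D2:**
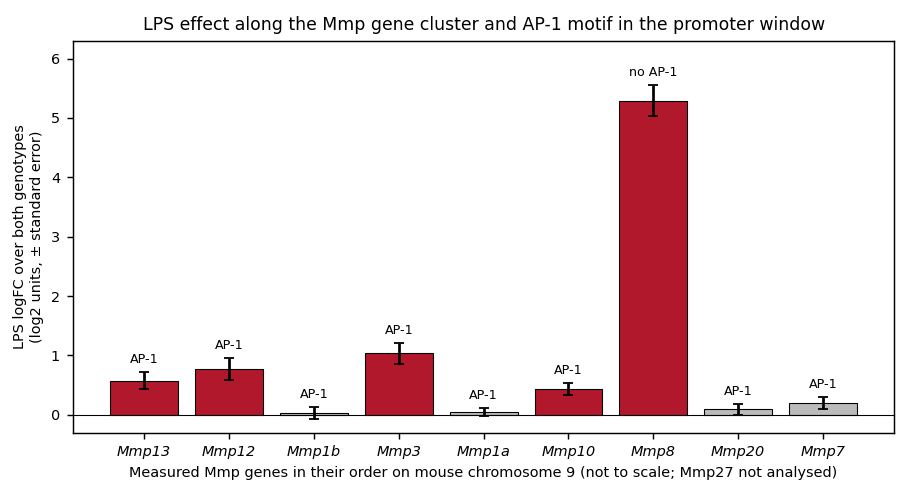
LPS logFC over both genotypes with its standard error (vertical axis, log2 units) of the 9 analysed Mmp genes in their order on chromosome 9, red where called and grey where not, with the presence of the AP-1 motif written above each bar. Mmp8 stands at 5.29 without the motif, and the uncalled Mmp1b, Mmp1a, Mmp20 and Mmp7 hold it. These uncalled genes read below the median of every array.

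Among the ADAMTS proteases, 2 genes rose. Adamts4, an aggrecanase that also cuts versican, read 6.94 and 6.70 in WT dox, 6.84 and 6.92 in CCSP-p52 dox, 9.99 and 9.46 in WT LPS and 10.38 and 9.04 in CCSP-p52 LPS lungs. The dox and LPS pools did not meet, and the logFC was 2.87 (standard error 0.26, 7.29-fold, adjusted p = 0.00026). Adamts3, which removes the N-propeptide of procollagen, read between 8.33 and 8.50 in the dox pools and between 9.53 and 9.94 in the LPS pools, a logFC of 1.34 (standard error 0.09, 2.52-fold). All 16 of its probe sets were higher, by a logFC of 0.75 to 1.78. The other measured procollagen N-proteinase, Adamts14, had a logFC of 0.21 and was not called.

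The ADAMTS genes that fell included Adamts10 and Adamts17, relatives that act on fibrillin microfibrils. Adamts10 read 10.95, 11.12, 10.87 and 11.10 in the dox pools and 9.42, 9.81, 9.06 and 10.20 in the LPS pools, WT before CCSP-p52, and fell by 1.39 (standard error 0.22, adjusted p = 0.0026). Adamts17 fell by 0.79 (standard error 0.11), and each of its 5 probe sets was lower, with a logFC from -1.66 to -0.32. Adamts1, a versican-cleaving protease, fell by 0.48 (standard error 0.12). Its pools overlap, since CCSP-p52 LPS pool 2 read 10.80 and WT dox pool 1 read 10.77, and its call was lost without WT dox pool 2 (-0.39) or WT LPS pool 1 (-0.45). The remaining proteoglycan-cleaving members, Adamts5, Adamts8, Adamts9, Adamts15 and Adamts20, were not called for LPS and lay between -0.20 and 0.14. The probe sets of Adamts8 disagreed: the one with the highest mean had a logFC of -0.12, while the other was lower at -1.09 (standard error 0.22, adjusted p = 0.0067). Adamts13, the protease that cuts von Willebrand factor, stood at -0.07 and was not called.

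ADAMTS-like proteins carry the ADAMTS binding domains without the protease, and 3 of the 5 were lower after LPS. Adamtsl3 read 8.93, 8.95, 8.81 and 9.10 in the dox pools and 7.63, 7.59, 7.33 and 7.92 in the LPS pools, WT before CCSP-p52. The ranges are well apart, and it fell by 1.33 (standard error 0.13, 2.51-fold, adjusted p = 0.00032). Adamtsl1 fell by 0.56 (standard error 0.17) and Adamtsl5 by 0.54 (standard error 0.17). Both calls held with CCSP-p52 LPS pool 2 left out, at -0.75 and -0.72, and were lost with each of the other arrays left out. In that pool Adamtsl1 read 8.45 and Adamtsl5 9.23, beside 7.60 and 8.37 in CCSP-p52 LPS pool 1. Adamtsl2, which binds fibrillin and latent TGF-beta binding protein, had a logFC of -0.62 (standard error 0.26) that did not pass adjustment (adjusted p = 0.11), and passed it with the pool number as a block (adjusted p = 0.046). Adamtsl4, a fibrillin-binding member, stood at 0.13.

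The 4 TIMPs did not move together. Timp1, a soluble inhibitor of most MMPs, read 8.09 and 8.05 in WT dox, 8.59 and 8.29 in CCSP-p52 dox, 12.96 and 12.88 in WT LPS and 12.94 and 12.22 in CCSP-p52 LPS lungs. The LPS pools were far above the dox pools in both genotypes, with a logFC of 4.50 (standard error 0.19, 22.6-fold, adjusted p = 2.6e-05), rank 14 from the top among all genes. Timp2, which with MMP14 takes part in the activation of MMP2, went down instead. It read 12.40, 12.30, 12.34 and 12.27 in the dox pools and 11.47, 11.43, 11.39 and 12.01 in the LPS pools, WT before CCSP-p52, and fell by 0.75 (standard error 0.13, adjusted p = 0.0039). Timp3, which is bound to the matrix and also inhibits ADAMTS proteases and ADAM17, had a logFC of 0.13 (95% interval -0.12 to 0.38), and Timp4 one of 0.24 (-0.02 to 0.49). Neither was called.

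Genes on both sides of these enzymes were set beside them from lists of other proteases, inhibitors and substrates. The counts after LPS stand beside 13.5% higher and 20.8% lower of all genes, and the lists are small. Of 9 ADAM sheddases, which release proteins from the cell surface, 5 were higher and 1 was lower, led by Adam8 (logFC 1.98, standard error 0.21) and with Adam17, the sheddase of TNF, at 0.63 and Adam33 at -0.46. In the plasminogen system, whose product plasmin activates several MMPs, 4 of 7 measured genes were higher and 1 lower. Plaur, the urokinase receptor, stood at 1.10, Plat, tissue plasminogen activator, at 1.19 and Serpinb2, an inhibitor of both activators, at 2.01. Thbd, thrombomodulin, an anticoagulant receptor of endothelium, was the lower one and fell by 1.55 (standard error 0.26, adjusted p = 0.0030). Of 9 other regulators and inhibitors 3 were higher and 2 lower. Serpina3n had a logFC of 1.66, Slpi, an inhibitor of neutrophil elastase, 1.94 and Cstb 1.87, whereas Reck, a membrane inhibitor of MMPs, fell by 1.39 (standard error 0.24). Among 13 matrix substrates 2 were higher and 3 lower, which is near the shares of all genes and no result about the list. Vcan, versican, a substrate of ADAMTS4, rose by 1.93 (standard error 0.17), while Fmod fell by 1.17 and Hspg2, perlecan, fell by 0.81. Of 9 lysosomal and mast cell proteases 4 were higher and none lower, with Ctss at 2.23, Ctsz at 1.50 and Ctsd at 0.81.

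Markers of other cell types moved between the same groups, where 13.5% of all genes were higher after LPS and 20.8% lower. Of 11 neutrophil markers 9 were higher and none lower, and their mean was 6.93 to 7.29 in the dox pools and 9.59 to 9.88 in the LPS pools, led by S100a8 at a logFC of 4.65. Granule genes of early neutrophil development, Mpo (0.21) and Elane (0.20), were not called. Of 11 monocyte and macrophage markers 9 were higher, with a mean of 8.25 to 8.73 in dox and 9.58 to 10.06 in LPS lungs. In the other direction, 9 of 10 endothelial markers were lower (mean 12.09 to 12.20 in dox and 10.92 to 11.69 in LPS), as were 7 of 12 fibroblast and pericyte markers (11.39 to 11.46 and 10.62 to 10.95), 4 of 8 smooth muscle markers and 7 of 10 alveolar epithelial markers. Of 9 airway secretory and ciliated markers 2 were lower. Their means were 10.33 and 10.38 in WT dox and 9.82 and 9.66 in CCSP-p52 dox lungs. After LPS the pools of a group differed, with 8.76 and 10.08 in WT and 9.24 and 9.85 in CCSP-p52 lungs. The lowest p52 logFC without LPS among these markers was -2.93. None of the 10 cartilage markers was called. The part of these cell types in the changes of the proteases and inhibitors was not tested.

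The LPS differences were then set side by side in each genotype. In WT lungs 11 members were higher and 8 lower (background 8.07% and 14% of all genes), and in CCSP-p52 lungs 10 were higher and 3 lower (background 4.31% and 5.03%). Both genotypes shared 9 higher members and 3 lower ones, 19.1% and 6.38% of the 47, beside 3.73% and 4.53% of all genes. Mmp8 had a logFC of 5.21 (standard error 0.39) in WT and 5.38 (0.39) in CCSP-p52 lungs, where it ranked 1 from the top of all 18820 genes. Timp1 stood at 4.85 and 4.14 (standard error 0.23 in each), Adamts4 at 2.91 and 2.83 and Mmp9 at 2.87 and 2.58. Mmp13 was called in CCSP-p52 lungs alone (0.27 in WT and 0.88 in CCSP-p52, standard error 0.16), Mmp12 (1.00 and 0.53) and Mmp10 (0.60 and 0.27) in WT lungs alone, and so were the lower Timp2, Adamts10, Adamts1, Mmp23 and Mmp2. With the pool number as a block Adamts10 was also lower in CCSP-p52 lungs (-1.35, adjusted p = 0.020 from limma, and 0.054 without the block), which makes 4 lower members there.

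A call in 1 genotype does not show that the genotypes differ, and the difference of the LPS effects was tested directly. No member passed adjustment, nor did any other gene, and 1 member had an unadjusted p under 0.05, beside 5.02% of all genes. This was Mmp13, whose LPS logFC was higher by 0.62 in CCSP-p52 lungs (standard error 0.22, unadjusted p = 0.027, adjusted p = 0.91 from limma). For Timp1 the difference was -0.71 (95% interval -1.47 to 0.06), for Mmp11 0.49 (-0.04 to 1.02) and for Mmp8 0.17 (-1.15 to 1.49). The intervals are wide, so differences of this size between genotypes could not be resolved with 2 pools per group.

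**Figure D3:**
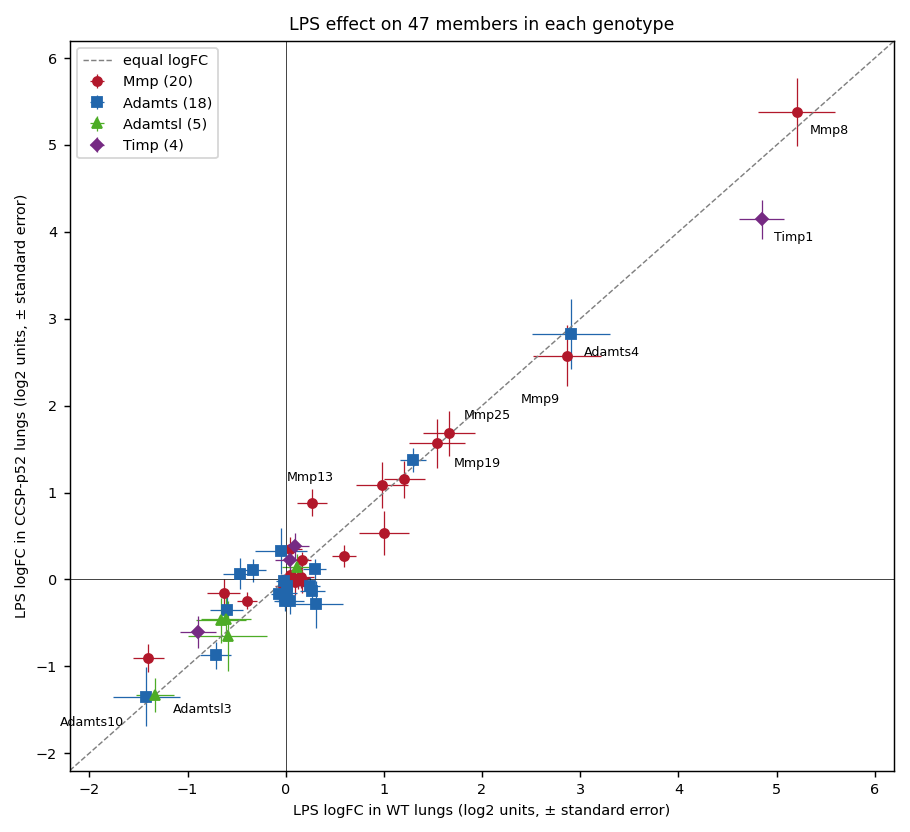
LPS logFC of the 47 members in WT lungs (horizontal axis) and in CCSP-p52 lungs (vertical axis), both in log2 units with standard errors, by family, with a dashed line where both are equal. Mmp8, Timp1, Adamts4 and Mmp9 lie at the upper right, Mmp13 lies above the line at 0.27 and 0.88, and Adamts10 and Adamtsl3 lie at the lower left.

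Single pools weighed on the counts within a genotype. CCSP-p52 LPS pool 2 had moved least from the dox pools in 15 of the 21 called members, with a median move of 0.81 log2 units against 1.13 to 1.39 in the other LPS pools. Without it, 12 members were higher and 9 lower in CCSP-p52 lungs, beside 11.9% and 14.9% of all genes. Without CCSP-p52 dox pool 1 or pool 2 the counts there were 2 higher and 0 lower, and the background was 0.393% and 0.106% without the first, and 0.17% and 0.0691% without the second. Without either WT dox pool they were 7 and 1 (background 1.82% and 1.55%), and without CCSP-p52 LPS pool 1 they were 8 and 2 (3.1% and 3.1%). In WT lungs 3 were higher and 1 lower without WT dox pool 2, 4 and 1 without WT dox pool 1, 5 and 3 without WT LPS pool 1, 8 and 3 without WT LPS pool 2, and 9 and 3 without either CCSP-p52 dox pool, whereas 11 and 12 were counted without either CCSP-p52 LPS pool. The background for WT lungs moved with these counts, from 0.68% higher and 0.765% lower without WT dox pool 2 to 12.9% and 19.9% without either CCSP-p52 LPS pool. A fit with 1 pool left in a group takes its spread from the other groups. Leaving out both second LPS pools gave 13 higher and 12 lower over both genotypes (background 19.3% and 25%), 11 and 12 in WT lungs (14.7% and 19.3%), and 12 and 9 in CCSP-p52 lungs (14.7% and 17.9%).

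**Figure D4:**
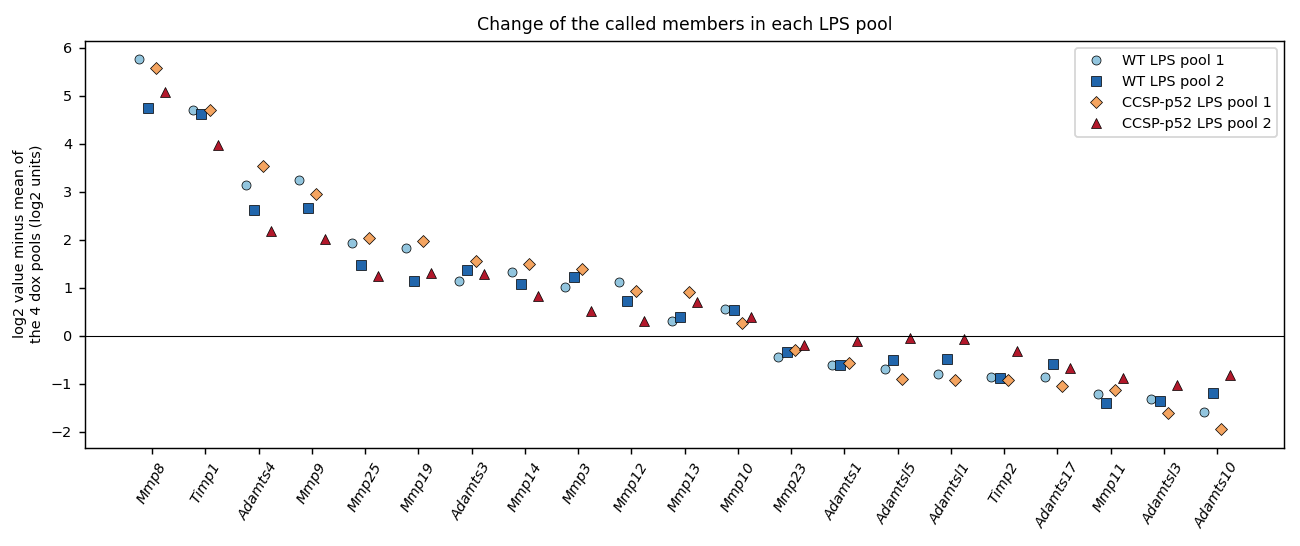
Log2 value of each LPS pool minus the mean of the 4 dox pools (vertical axis, log2 units) for the 21 members called for LPS. CCSP-p52 LPS pool 2 (triangles) lies nearest to 0 in 15 of them, with a median move of 0.81.

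Differences between the genotypes were few. Over both LPS states no member was called for p52 in either direction (background 0.228% higher and 0.0425% lower), and without LPS 1 member was higher and 0 lower (background 0.569% and 0.165%). With LPS 2 members were higher and 0 lower (background 0.972% and 1.09%). None of these passed adjustment over all probe sets. The 1 and 2 members are 2.13% and 4.26% of the 47, too few to read as a result about the families.

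Adamts9, a versican- and aggrecan-cleaving protease, was the member higher without LPS. On dox it read 10.48 and 11.01 in WT and 11.23 and 11.64 in CCSP-p52 lungs, and after LPS 11.03 and 11.07 in WT and 10.81 and 11.49 in CCSP-p52 lungs. The genotypes lie apart on dox and overlap after LPS. The p52 logFC was 0.69 without LPS (standard error 0.27, 1.61-fold, unadjusted p = 0.039, adjusted p = 1.00 from limma) and 0.10 with LPS (standard error 0.27). Leaving out WT dox pool 1 (0.43), pool 2 of CCSP-p52 dox (0.48) or either of the WT LPS pools (0.69 in both) ended the call, and the value with LPS turned to -0.25 without CCSP-p52 LPS pool 2. Of its 6 probe sets, 4 were called without LPS, and all 6 had a positive logFC there, 0.45 to 0.69. With LPS none was called, and all 6 were again positive, 0.10 to 0.39. The probe set used here had the highest of these values without LPS and the lowest with LPS. Its contrast between the 2 states is therefore the sharpest of the 6. Over both LPS states 3 of the 6 were called higher. The study chose Adamts9 for its list of p52 genes on these arrays, so its direction here is not independent evidence.

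With LPS, Mmp13 read 7.01 and 7.09 in WT and 7.62 and 7.42 in CCSP-p52 lungs, a p52 logFC of 0.47 (standard error 0.16, unadjusted p = 0.020, adjusted p = 0.69 from limma). Without LPS it read 6.99 and 6.58 in WT and 6.56 and 6.71 in CCSP-p52 lungs. The pools of the genotypes thus lie apart after LPS and overlap without it. Leaving out the first WT LPS pool (0.43) or the first CCSP-p52 LPS pool (0.37) ended the call. Mmp2 had a p52 logFC of 0.44 with LPS (standard error 0.17, unadjusted p = 0.032, adjusted p = 0.70), and 0.24 without WT LPS pool 2, the pool with the squamous and muscle genes, in which it read 11.07, its lowest value. Leaving out the second CCSP-p52 LPS pool (0.34) or either CCSP-p52 dox pool (0.44 in both) also ended its call, and it stood at 0.14 without both second LPS pools.

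For the other members the values between genotypes were small or poorly resolved. Timp1 stood at 0.37 in CCSP-p52 lungs without LPS (95% interval -0.17 to 0.91) and at -0.34 with LPS (-0.88 to 0.20). Mmp9 had a p52 logFC of -0.46 with LPS, with an interval of -1.29 to 0.36, and Adamts15, a proteoglycan-cleaving protease, one of 0.44 (-0.18 to 1.06). The median p52 logFC of the 47 members was 0.0033 without LPS and 0.017 with LPS, and that of all genes -0.0027 and 0.0046. Counts with LPS hung on CCSP-p52 LPS pool 1, without which 9 members were higher and 5 lower in CCSP-p52 lungs, while the background rose to 8.38% higher and 6.41% lower of all genes. Over both LPS states the counts without this pool were 2 and 1 (background 0.611% and 0.372%). Without WT LPS pool 1 the counts with LPS were 1 and 2 (background 1.23% and 3.21%), and without CCSP-p52 LPS pool 2 they were 2 and 2 (1.74% and 2.15%).

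**Figure D5:**
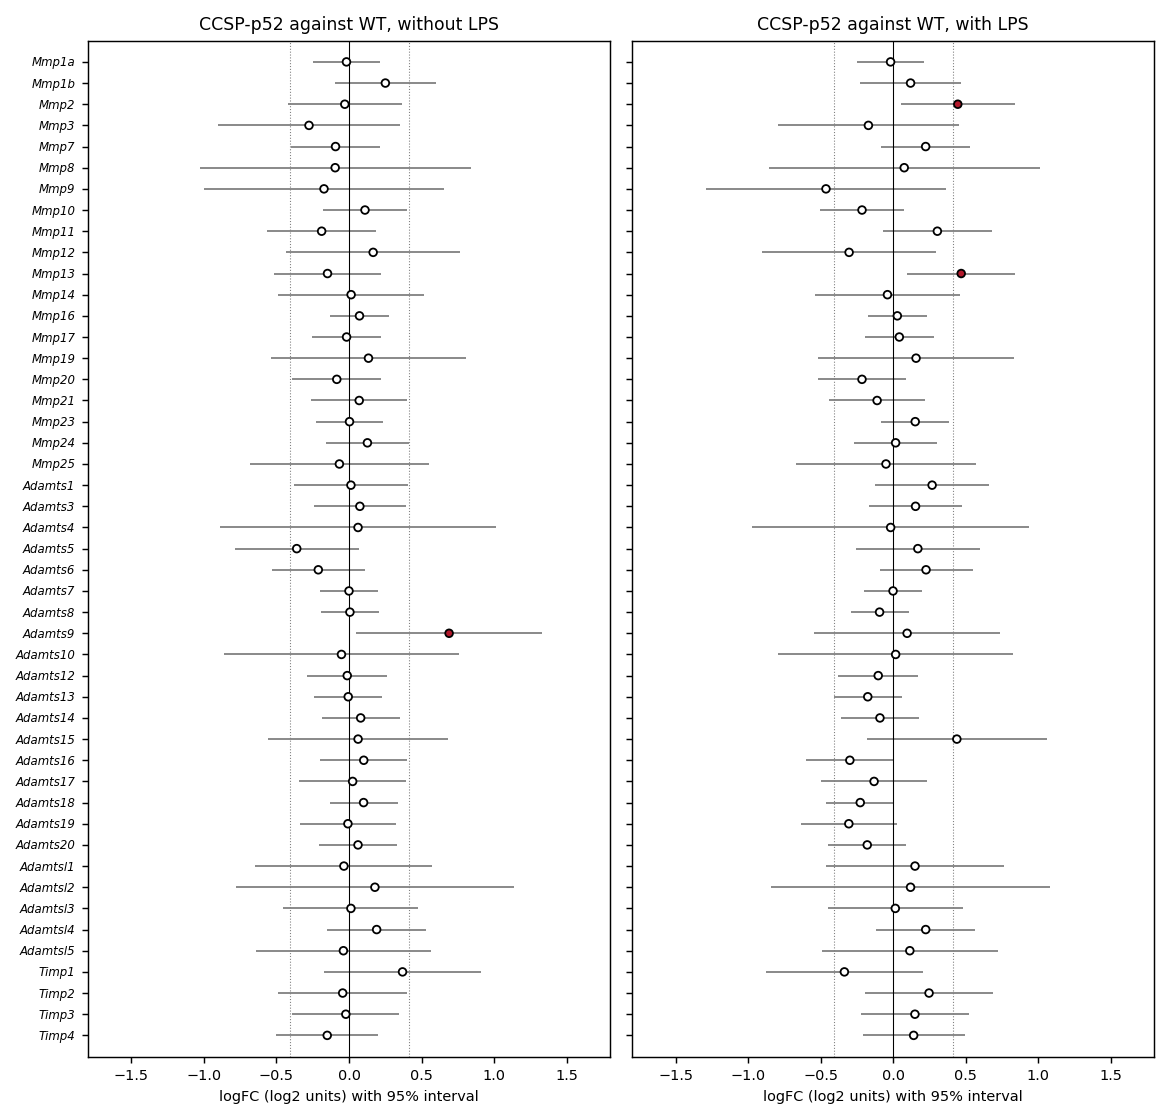
LogFC of CCSP-p52 against WT lungs for each of the 47 members, without LPS on the left and with LPS on the right (horizontal axes, log2 units), with 95% intervals and dotted lines at 0.41 on either side of 0. Filled points are the members called for p52, Adamts9 without LPS and Mmp2 and Mmp13 with LPS, and most other intervals include 0.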

How the data were processed

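Whole lung RNA of 8 pools, each of 3 mice, was read on Affymetrix Mouse Gene 1.0 ST arrays. The deposited values are log2 expression, which the authors made by Robust Multichip Average (RMA, package oligo): background correction, normalization to 1 distribution and a summary per probe set. A difference in total RNA between lungs is therefore not seen. The submitters' processing notes name limma 3.20.8. Of 35556 probe sets, 21218 (59.7%) had 1 symbol in the platform's gene table and were tested, and 1881 with several symbols and 12457 not in the table were not. The number of arrays limits the precision, with a median standard error of 0.11 over the members in the additive model and 0.16 for contrasts of 2 groups.

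LPS and p52 effects were fitted with limma 3.58.1 in R 4.3.3, by an additive linear model of both factors over all 8 arrays (the study's methods name both factors and do not say whether their interaction was fitted), and by a model of the 4 groups for effects within a genotype or LPS state and for their difference. The study's list gives Nfkb2 0.720 and Adamts9 0.564. These equal the p52 logFC without LPS here, for Adamts9 on another of its probe sets. Over both LPS states the same probe sets had 0.467 and 0.434. Deviations of same-numbered pools correlated at 0.14 to 0.35 in all 6 pairs of groups. No source used here says what these pools share. The replicate numbers were taken to pair the pools only in an alternative fit, the replicate block. The main fits did not pair them, and values, p-values and counts are from these fits unless a block is named. Nothing says whether pools came from separate experiments, so p-values measure the spread between these pools.

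The members and the lists of related genes were chosen with earlier results of these data known. Named with values were the TIMPs, up to 20 members called for LPS by size of logFC, members called in a p52 comparison or the difference, Adamts9, the first 3 members of each family by mean level, and up to 3 genes of each other list by LPS p. Mmp23, uncalled members of small enzyme classes, Thbd, Reck, Mpo and Elane were named after their values were seen. All fitting steps were first tested on simulated data. Alternatives changed the probe sets, moderation, weights, scaling, replicate block, thresholds and arrays.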

Additional observations from a re-analysis of the deposited data

Results flagged for a closer look

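Mmp13, collagenase 3, rose more after LPS in CCSP-p52 than in WT lungs by the test of the difference itself, by 0.62 on the log2 scale (unadjusted p = 0.027, adjusted p = 0.91 from limma), with both CCSP-p52 LPS pools above both WT LPS pools (7.62 and 7.42 against 7.01 and 7.09). The difference failed adjustment over all probe sets. Mmp13 was the 1 member of 47 with an unadjusted p under 0.05, beside 945 of 18820 genes (5.02%), so the members did not exceed the share of all genes. With single arrays left out it ranged from 0.41 to 0.82. Groups of 2 pools are too small for a check of single outlying pools.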

How the results depend on the processing

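Values of 30 results on single genes were recomputed under the alternatives, 582 in all: 518 kept direction and side of the threshold, 58 kept direction and lost the call, 4 gained a call and 2 changed sign. These 2 were the p52 logFC of Adamts9 with LPS, -0.25 without CCSP-p52 LPS pool 2 and -0.23 without both second LPS pools (range over single arrays left out -0.25 to 0.44). Counts of called members moved by over 1.5 times in the following cases, and the cause was not tested unless stated. Without probe sets below the median level, 7 members were higher for LPS over both genotypes, 7 in WT lungs, and 1 for p52 with LPS. That setting leaves fewer genes tested. It also drops the higher members Mmp3, Mmp10, Mmp12, Mmp13 and Mmp25, which lie below that level and could not be called. At an adjusted p under 0.01 the counts were 5 lower over both genotypes, 6 higher and 2 lower in WT lungs, and 3 higher and 0 lower in CCSP-p52 lungs. With a logFC of at least 1 in size required they were 3 lower over both, 3 lower in WT and 1 lower in CCSP-p52 lungs. With all probe sets of the file or with the arrays centred again, 5 were lower in WT lungs. With only the 4 arrays compared, 4 were higher and 0 lower in CCSP-p52 lungs, and 1 was higher for p52 with LPS. Without both second LPS pools 9 were lower in CCSP-p52 lungs and 12 in WT lungs. For p52 over both LPS states, the mean of a gene's probe sets and array weights gave 1 higher each, which was Adamts9 (0.41 and 0.42). For p52 with LPS, array weights gave 0 higher. At an adjusted p under 0.05, p52 gave 0 higher without LPS and 0 with LPS, among the members and among all genes. Shares of all genes were not counted at the other settings listed here, except without both second LPS pools. These counts are therefore not a result about the families.

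With each array left out in turn, LPS over both genotypes gave 11 to 13 higher and 6 to 12 lower, LPS in WT lungs 3 to 11 and 1 to 12, LPS in CCSP-p52 lungs 2 to 12 and 0 to 9, p52 over both LPS states 0 to 2 and 0 to 1, p52 without LPS 0 to 1 higher and 0 to 0 lower, p52 with LPS 1 to 9 and 0 to 5, and the difference of LPS effects 0 to 0. With the replicate block, which pairs pools of the same number, 10 were lower for LPS over both genotypes, Adamtsl2 being added (-0.62, adjusted p = 0.046 from limma), and 4 in CCSP-p52 lungs, Adamts10 being added (-1.35, adjusted p = 0.020). The block changed no other call. Adamtsl1 and Adamtsl5 were not called with all probe sets or with the 2 effects of the 4-group model averaged, and Adamtsl5 also not with renewed centring or normalization (both lower, -0.48 and -0.47).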
